A study of Mus musculus with 22 samples.

Results

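The genes described here copy chromosomal DNA or supply its deoxynucleotides. They were chosen as a list of 47 symbols that spans origin licensing, the MCM2-7 helicase, origin firing, the polymerases, the sliding clamp, single-strand binding, Okazaki fragment processing, nucleotide supply and chromatin behind the fork. All 47 had at least 1 probe on the array. Each was read from its brightest probe with a detection p under 0.05 on at least 4 of 22 arrays, which 42 genes passed, among 11118 genes in all. Orc1, the largest subunit of the origin recognition complex, and Slbp, which binds the stem-loop of histone mRNAs, were detected on 0 arrays. Prim1, the catalytic primase subunit, was detected on 1 array, and Pola1, the catalytic subunit of polymerase alpha, and Gmnn (geminin), the inhibitor of Cdt1, on 2 arrays each. Just inside the threshold lay Pole2, a polymerase epsilon subunit, which was detected on 7 arrays: 4 of 4 CMP, 2 of 4 GATA1+LSK and 1 of 4 LMPP arrays, and 0 arrays of LT-HSC and GATA1-LSK.

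The samples were cells of mouse bone marrow. Every group came from C57BL/6 mice carrying a GATA1-GFP transgene, 8 weeks old, and no treatment is named. LT-HSC (6 arrays) are long-term haematopoietic stem cells. GATA1+LSK and GATA1-LSK (4 arrays each) are parts of the LSK compartment (lineage-negative, Sca-1-positive and c-Kit-positive), named as positive and negative for GATA1. GATA1 is a transcription factor of the erythroid and megakaryocytic lineages. The names do not mean that its RNA was absent: Gata1, Itga2b, Pf4, Vwf and Gp9 were each detected on every GATA1-LSK array. LMPP (4 arrays) are lymphoid-primed multipotent progenitors and CMP (4 arrays) are common myeloid progenitors. The labels give neither the sort gates nor the promoter of the transgene, and they do not say whether replicates came from different animals, so p-values here reflect only variation from array to array, which may be technical. The arrays measured RNA of whole populations, so fewer cells that express a gene and less of its RNA per cell cannot be told apart. All values below are log2 signal after background correction and quantile normalisation, and levels are compared for 1 probe between arrays, never between genes.

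Before a cell divides, each origin is licensed once: the origin recognition complex, Cdc6 and Cdt1 load the MCM2-7 ring onto DNA. Kinases then fire the origin, Cdc45 and the GINS complex join MCM2-7 to form the working helicase, and primase, the polymerases, the PCNA clamp with its loader RFC, and RPA copy the strands. Ribonucleotide reductase, thymidylate synthase and thymidine kinase supply the deoxynucleotides. Many of these genes are transcribed under E2F factors towards S phase. Long-term stem cells of adult marrow are known to be mostly quiescent, while the progenitors below them cycle.

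The 22 arrays lay on 4 slides, and slide and population were partly aligned. Mean raw signal ran from 311 to 462 on slide 2 and from 123 to 209 on slide 3, and detected probes per array from 12264 to 19015. The LT-HSC arrays stood apart by slide: replicates 1 and 2 lay on slide 2 and replicates 3 to 6 on slide 3. Summed log2 signal of 5 measured genes of a mature neutrophil list was 24.5 to 24.7 on the slide 2 LT-HSC arrays and 30.7 to 44.2 on those of slide 3, against 23.5 to 32.9 in the other populations. Sums of 5 measured erythroblast genes were 38.8 to 39.7 against 44.3 to 46.9, and replicates 3 and 4 had sums of 27.1 and 26.9 for 3 B cell genes, against 18.2 to 21.8 on the arrays of the other populations. Sums of 4 CMP marker genes were 22.8 and 23.5 on the slide 2 LT-HSC arrays and 28.0 to 36.4 on those of slide 3, against 37.2 to 39.6 in CMP, and sums of 2 T and NK cell genes were 14.6 and 15.1 against 19.1 to 20.4. In GATA1+LSK the erythroblast sum ranged from 37.2 to 52.4. The labelled populations had the highest sums of their own marker genes in LMPP (40.3 to 42.5 over 5 genes), CMP (37.2 to 39.6 over 4) and GATA1+LSK (50.6 to 55.2 over 5), while 5 measured stem cell genes summed to 35.4 to 38.9 in LT-HSC, 35.1 to 36.1 in GATA1-LSK and 36.6 to 39.4 in GATA1+LSK. What part these differences play in the results was not tested, and the counts against LT-HSC, for the 42 genes, for each role and for the neighbouring lists, are therefore also given with the LT-HSC arrays of each slide alone.

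Promoter sequence was available in RefSeq (build GRCm38.p6) for 39 of the 47 genes, as 47 windows of 300 bases that end 50 bases after a transcript start. Among the measured genes, Mcm2, Tk1, Chaf1a and Lig1 differed most over the 5 populations by the F-test below. The 250 bases before the start are shown for those with 1 annotated start, Mcm2 (chr6:88898781-88899030, minus strand), Tk1 (chr11:117826015-117826264, minus strand) and Chaf1a (chr17:56040166-56040415, plus strand). Mcm5 (chr8:75109259-75109508, plus strand) and Mcm6 (chr1:128359706-128359955, minus strand), chosen after the search, are shown because they hold E2F motifs. Capitals mark the E2F octamers TTTCCCGC, TTTCGCGC, TTTGCCGC and TTTGGCGC, and CCAAT, the box bound by NF-Y, each on either strand; overlapping matches run together.
Mcm2: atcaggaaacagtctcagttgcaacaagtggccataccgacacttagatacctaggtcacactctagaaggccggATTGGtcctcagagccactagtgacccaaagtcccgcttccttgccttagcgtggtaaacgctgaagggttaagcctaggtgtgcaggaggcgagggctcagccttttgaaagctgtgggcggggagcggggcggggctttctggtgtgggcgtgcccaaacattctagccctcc
Tk1: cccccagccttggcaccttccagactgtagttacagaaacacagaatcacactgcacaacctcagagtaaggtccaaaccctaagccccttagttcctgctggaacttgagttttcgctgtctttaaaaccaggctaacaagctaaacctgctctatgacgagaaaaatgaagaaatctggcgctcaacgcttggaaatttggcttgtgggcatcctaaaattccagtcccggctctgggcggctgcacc
Chaf1a: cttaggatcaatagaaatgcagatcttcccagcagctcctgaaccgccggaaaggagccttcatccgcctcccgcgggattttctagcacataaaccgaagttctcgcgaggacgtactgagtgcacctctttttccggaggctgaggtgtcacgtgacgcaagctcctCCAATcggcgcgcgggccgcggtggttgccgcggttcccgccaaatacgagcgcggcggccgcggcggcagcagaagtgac
Mcm5: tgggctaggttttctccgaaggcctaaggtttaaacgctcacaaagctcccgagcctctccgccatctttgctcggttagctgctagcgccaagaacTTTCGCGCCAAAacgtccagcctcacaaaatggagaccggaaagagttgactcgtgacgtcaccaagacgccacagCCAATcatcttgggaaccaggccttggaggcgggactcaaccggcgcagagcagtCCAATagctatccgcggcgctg
Mcm6: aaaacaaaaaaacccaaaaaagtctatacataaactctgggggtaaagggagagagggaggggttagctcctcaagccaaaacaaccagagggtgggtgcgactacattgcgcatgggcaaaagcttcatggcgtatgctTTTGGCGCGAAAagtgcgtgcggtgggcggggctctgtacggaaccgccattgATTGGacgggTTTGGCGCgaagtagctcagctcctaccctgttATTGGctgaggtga
An E2F octamer was present in 13 of the 47 windows (27.7%), those of 13 genes, and in 2.26% of the 32851 windows of all genes. CCAAT was present in 28 of the 47 windows (59.6%) and in 37.4% of all windows. In Mcm5 a pair of octamers overlapped, and Mcm6 held 3 matches. The printed Mcm2 and Chaf1a windows held CCAAT but none of these octamers, and the Tk1 window held neither. A match is a description of letters and not of a bound site.

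The measured genes were lowest in LT-HSC. LT-HSC had the lowest mean of the 5 populations for 35 of 42 genes and the highest for 0, while CMP was highest for 18, GATA1+LSK for 14, LMPP for 8 and GATA1-LSK for 2. Averaged over the 42 genes, the level of an array was 8.33 to 8.82 in LT-HSC (8.57 ± 0.18, SD, n = 6) and 9.20 to 9.42 in GATA1-LSK (9.30 ± 0.10, n = 4). It was 9.49 to 9.62 in LMPP (9.54 ± 0.06, n = 4), 9.57 to 9.68 in GATA1+LSK (9.64 ± 0.05, n = 4) and 9.60 to 9.85 in CMP (9.73 ± 0.11, n = 4). No LT-HSC array reached the lowest GATA1-LSK array, and no GATA1-LSK array reached the lowest of the other progenitor arrays. The F-test of limma over the 5 populations, adjusted by Benjamini-Hochberg over all genes, called 30 of 42 genes (71.4%), against 22.9% of all genes. The genes not called were Orc2, Orc6, Mcm3, Gins2, Pole, Pole2, Rfc1, Rfc3, Rpa3, Rnaseh2a, Dut and Chaf1b, of which Orc6 lay nearest (adjusted p = 0.0502).

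**Figure D1:**
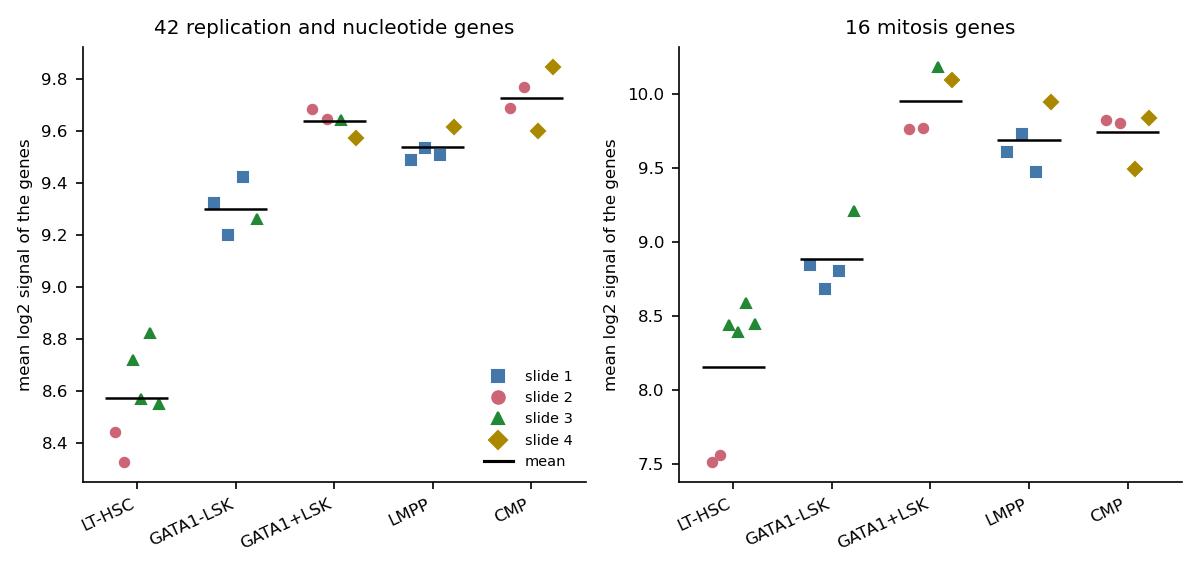
Mean log2 signal (y axis) of the 42 replication and nucleotide genes (left) and of 16 mitosis genes (right) on each of 22 arrays, grouped by population on the x axis, with symbols for slides and bars for population means. The LT-HSC arrays sit between 8.33 and 8.82 on the left, below the GATA1-LSK arrays at 9.20 to 9.42 and all others at 9.49 or above.

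Every call against LT-HSC was in the direction of the progenitors. In CMP, 30 of 42 genes were higher at an adjusted p under 0.05, against 10.1% of all genes, and 0 were lower, against 11.4%; the median difference was 1.16 for the 42 genes and 0.06 for all genes. In LMPP, 27 were higher, against 8.27% of all genes, and 0 lower, against 7.90%, with medians of 0.99 and 0.06. In GATA1+LSK, 26 were higher, against 4.16%, and 0 lower, against 6.34%, with medians of 1.0 and 0.01. In GATA1-LSK, 20 were higher, against 2.71%, and 0 lower, against 2.74%, with medians of 0.83 and 0.05. These 4 comparisons share the LT-HSC arrays. Median scaling in place of quantile normalisation shifted the median of all genes in CMP minus LT-HSC by -0.28. Higher genes made up 47.2% of all calls there with quantile normalisation and 31.8% with median scaling. The shares were 51.2% and 37% for LMPP, 39.6% and 31.3% for GATA1+LSK and 49.7% and 31.9% for GATA1-LSK. For GATA1+LSK minus CMP they were 53.7% and 64.1%. Median scaling lost 4 of the 30 calls in CMP, 3 of 27 in LMPP, 5 of 26 in GATA1+LSK and 9 of 20 in GATA1-LSK.

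Over the 42 genes together the counts were close with either set of LT-HSC arrays, an alternative added after the data were seen. With the 2 LT-HSC arrays of slide 2 alone, which had the low neutrophil and erythroblast sums, 29 genes were higher in CMP, 24 in LMPP, 25 in GATA1+LSK and 19 in GATA1-LSK. With the 4 of slide 3 alone the counts were 27, 26, 24 and 18. No share of all genes stands beside these counts or the like counts by role and list below. The shares given above used all LT-HSC arrays. Of the 103 single calls against LT-HSC, 27 were lost with slide 2 alone, 14 with slide 3 alone, and 64 held with both. Within slide 2 the median difference of the 42 genes was 1.37 for CMP and 1.32 for GATA1+LSK, and all 42 were positive in each. Within slide 3 it was 0.98 for GATA1+LSK (42 positive) and 0.63 for GATA1-LSK (35 positive), each resting on 1 array of the progenitor population. LMPP and LT-HSC share no slide. With slide as a fixed term, GATA1-LSK minus LT-HSC kept 7 of its 20 calls and counted 8 genes in all; leaving out GATA1-LSK replicate 1, 2 or 3 left 8, 11 and 9 genes. The corresponding losses under that term were 2 of 30 for CMP, 8 of 27 for LMPP and 1 of 26 for GATA1+LSK. Of the 103 calls, 30 were lost in at least 1 of the 10 single-array omissions and 17 in 5 or more, of which 8 were in GATA1-LSK, 5 in GATA1+LSK, 2 in LMPP and 2 in CMP.

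**Figure D2:**
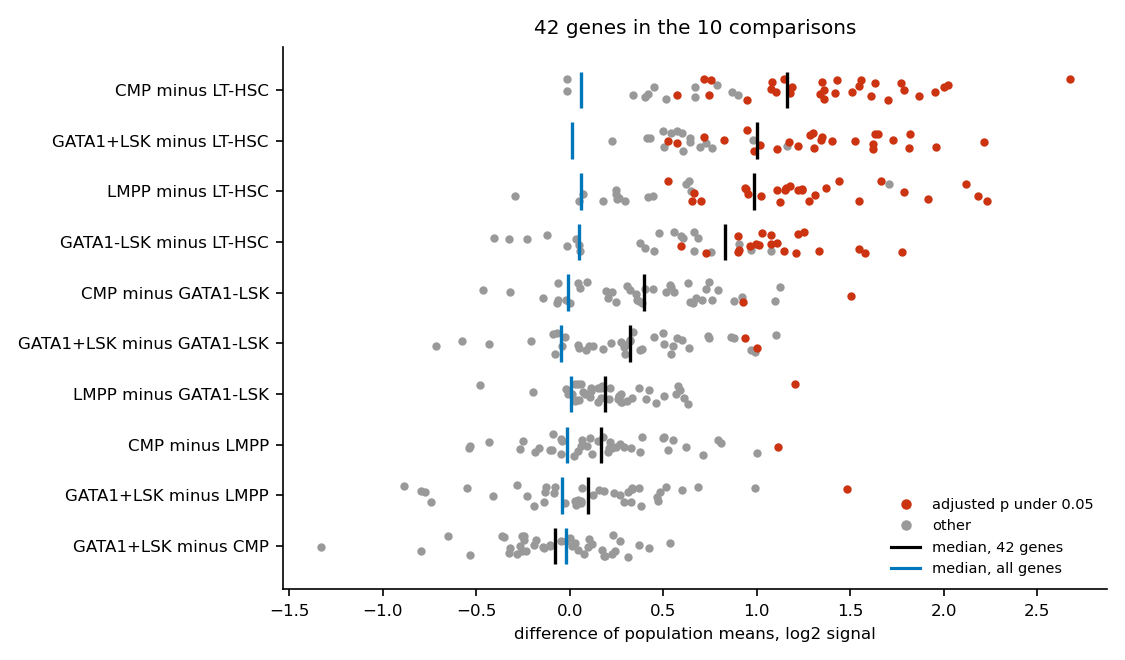
Difference of population means in log2 signal (x axis) of each of the 42 genes in each of the 10 comparisons (y axis), red where the adjusted p was under 0.05 and grey otherwise, with black and blue bars for the medians of the 42 genes and of all 11118 genes. Red points number 30, 26, 27 and 20 in the 4 comparisons against LT-HSC and 7 in the other 6 together.

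Of the 42 genes, 17 were higher in all 4 progenitor populations than in LT-HSC, 7 in 3 of them, 5 in 2, 4 in 1 and 9 in none. For 11 genes every LT-HSC array lay below all 16 other arrays: Mcm2, Mcm5, Mcm10, Cdc7, Cdt1, Gins4, Pola2, Prim2, Fen1, Tk1 and Chaf1a. These counts were made for the 42 genes only, so no share of all genes stands beside them. The calls of 7 genes, Mcm2, Cdt1, Prim2, Rfc5, Fen1, Tk1 and Chaf1a, held in all 4 comparisons with the LT-HSC arrays of either slide. With slide as a fixed term, the GATA1-LSK calls of Cdt1, Prim2 and Rfc5 were lost (limma adjusted p = 0.137, 0.214 and 0.135). The Rfc5 call in LMPP was lost as well (adjusted p = 0.0509). In GATA1-LSK the Prim2 and Rfc5 calls were each lost in 2 of 10 single-array omissions.

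**Figure D3:**
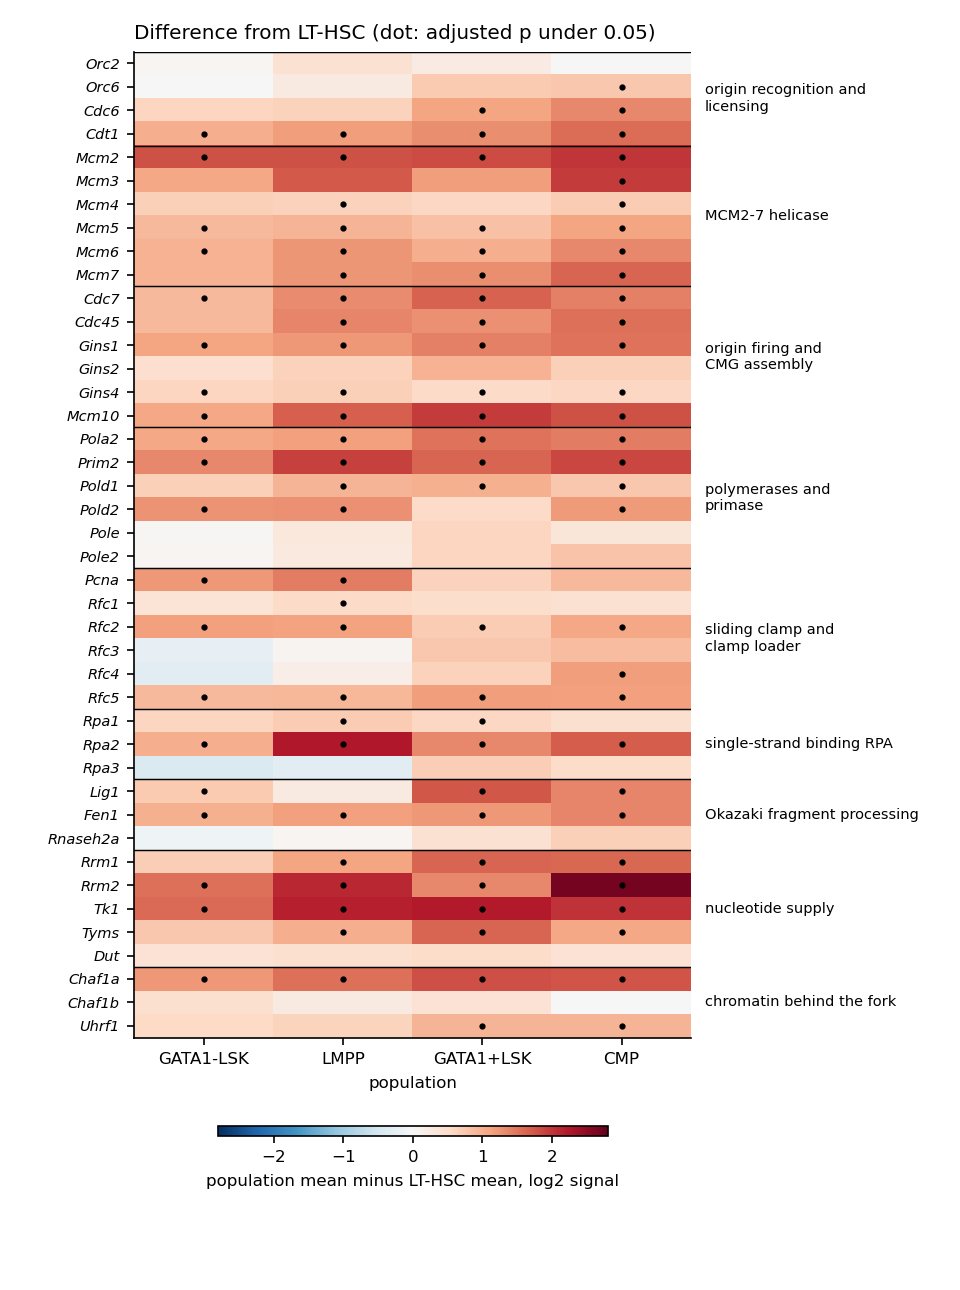
Difference from the LT-HSC mean in log2 signal (colour) for the 42 genes (rows, by role) in the other 4 populations (columns), with a dot where the adjusted p was under 0.05. Dots number 20 in GATA1-LSK, 27 in LMPP, 26 in GATA1+LSK and 30 in CMP, and no blue cell carries one.

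Among the licensing factors, Cdt1 was higher in all 4 progenitor populations, and Orc2 in none. Against slide 2 LT-HSC arrays alone, the genes called higher numbered 3 in CMP, 2 in LMPP, 3 in GATA1+LSK and 2 in GATA1-LSK, and against slide 3 alone 2, 1, 1 and 1. Cdt1, which loads the MCM2-7 ring, ran from 8.13 to 8.58 (median 8.32) on the 6 LT-HSC arrays. It was 9.11, 9.18, 9.83 and 9.23 in GATA1-LSK, 9.55, 10.02, 9.61 and 9.32 in GATA1+LSK, 9.42, 9.47, 9.67 and 9.45 in LMPP and 9.55, 9.88, 9.48 and 10.60 in CMP. No progenitor array came down to the LT-HSC range. The differences of Cdt1 from LT-HSC were 1.56 in CMP, 1.30 in GATA1+LSK, 1.18 in LMPP and 1.01 in GATA1-LSK (SE 0.21 each, adjusted p = 7.60e-06, 1.38e-04, 3.01e-04 and 0.00522). Cdc6, the ATPase that loads MCM2-7 together with the origin recognition complex, ran from 5.84 to 7.12 (median 6.58) on the 6 LT-HSC arrays, with the slide 2 arrays lowest. It was 6.73, 6.93, 7.23 and 7.43 in GATA1-LSK, 7.59, 7.17, 8.09 and 7.47 in GATA1+LSK, 7.37, 6.90, 6.63 and 7.53 in LMPP and 7.94, 7.30, 7.47 and 8.59 in CMP, so that LMPP and GATA1-LSK overlapped LT-HSC. Cdc6 was called in CMP, by 1.35 (SE 0.28, adjusted p = 0.00129), and in GATA1+LSK, by 1.11 (SE 0.28, adjusted p = 0.0125), where the call was lost without GATA1+LSK replicate 3. Orc6, an origin recognition subunit, was called in CMP alone, by 0.75 (SE 0.25, adjusted p = 0.0342), and missed the threshold with the replicate number as a block (adjusted p = 0.0501) and in 6 of 10 omissions of single arrays. Orc2, another subunit, differed by -0.01 to 0.42 from LT-HSC.

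All 6 subunits of the MCM2-7 helicase had higher means than LT-HSC in every progenitor population, and 6 were called in CMP, 5 in LMPP, 4 in GATA1+LSK and 3 in GATA1-LSK. This count depended on the LT-HSC arrays used. The genes called higher numbered 2 in CMP, 1 in LMPP, 1 in GATA1+LSK and 1 in GATA1-LSK with slide 2 LT-HSC arrays alone, and 6, 6, 5 and 5 with slide 3 alone. Mcm3, Mcm4, Mcm6 and Mcm7 held no call with both sets. Mcm2 separated the populations most of all 42 genes (F-test, first by p). It ran from 7.92 to 9.02 (median 8.93) on the 6 LT-HSC arrays. Its values were 10.65, 10.40, 10.62 and 10.27 in GATA1-LSK, 10.53, 10.72, 10.34 and 10.54 in GATA1+LSK, 10.54, 10.77, 10.60 and 10.09 in LMPP and 10.61, 10.83, 10.63 and 10.79 in CMP. The lowest progenitor array, of LMPP, was at 10.09 and the highest LT-HSC array at 9.02. The differences of Mcm2 from LT-HSC were 2.0 in CMP, 1.82 in GATA1+LSK, 1.79 in LMPP and 1.78 in GATA1-LSK (SE 0.20 each, adjusted p = 1.21e-07, 1.41e-06, 9.65e-07 and 5.96e-06), or 4.01-fold in CMP and 3.43-fold in GATA1-LSK. Mcm5 ran from 10.55 to 11.23 (median 10.91) on the 6 LT-HSC arrays, and was 11.88, 11.87, 12.14 and 11.25 in GATA1-LSK, 11.84, 12.02, 11.36 and 11.62 in GATA1+LSK, 12.11, 11.93, 11.82 and 11.50 in LMPP and 11.93, 12.27, 11.51 and 12.25 in CMP. The GATA1-LSK array of slide 3, at 11.25, came nearest to the highest LT-HSC array at 11.23. The differences of Mcm5 were 1.10 in CMP, 0.82 in GATA1+LSK, 0.95 in LMPP and 0.90 in GATA1-LSK (SE 0.21 each, adjusted p = 4.78e-04, 0.0118, 0.00261 and 0.0134). Only the Mcm5 call in CMP held with the LT-HSC arrays of either slide. With slide as a fixed term the calls in LMPP and GATA1-LSK were lost (limma adjusted p = 0.189 and 0.259). The GATA1-LSK call was lost in 2 of 10 single-array omissions and the GATA1+LSK call in 1. Mcm4 differed by 0.58 to 0.72 from LT-HSC and Mcm6 by 0.97 to 1.34. The Mcm6 call in GATA1+LSK was lost with the replicate number as a block (adjusted p = 0.051), and that in GATA1-LSK in 7 of 10 omissions of single arrays. Mcm7 was detected on 4 of 6 LT-HSC arrays and on all other arrays, and differed by 0.97 to 1.63. The Mcm7 call in LMPP was lost in 6 of 10 single-array omissions and that in GATA1+LSK in 5 of 10 omissions. Mcm3 ranged from 4.74 to 7.39 in LT-HSC and from 5.48 to 8.41 in GATA1+LSK, and was called in CMP only, by 1.96 (SE 0.64, adjusted p = 0.0334). The Mcm3 call in CMP was lost in 5 of 10 single-array omissions, with median scaling and with the LT-HSC arrays of slide 2 alone.

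**Figure D4:**
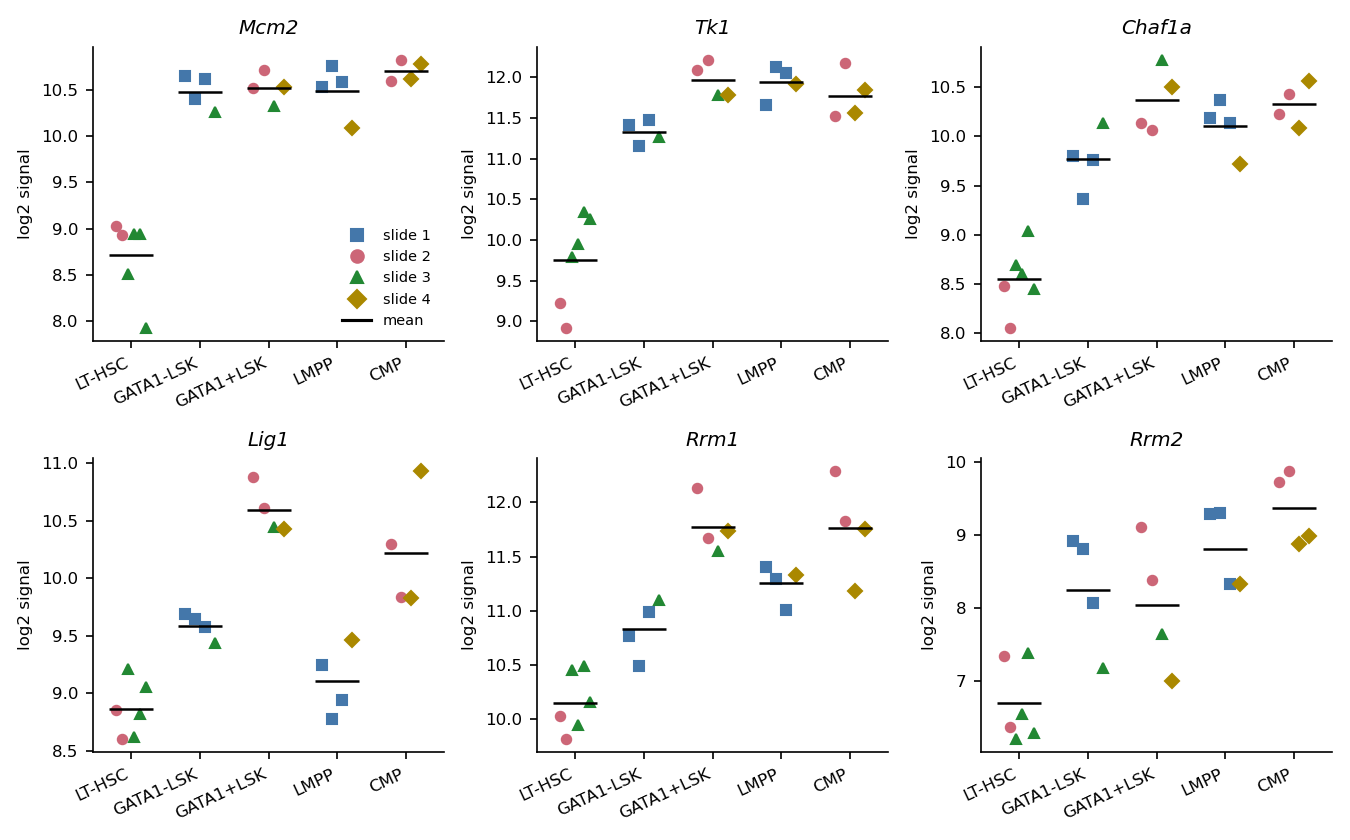
Log2 signal (y axis) of Mcm2, Tk1, Chaf1a, Lig1, Rrm1 and Rrm2 on each of 22 arrays by population (x axis), with symbols for slides and bars for population means. For Mcm2, Tk1 and Chaf1a every LT-HSC array lies below every other array, and the Lig1 mean is lower in LMPP than in the other progenitor populations.

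Of the 6 measured factors that fire licensed origins, Mcm10, Cdc7, Gins1 and Gins4 were called in all 4 comparisons. With the LT-HSC arrays of slide 2 alone the genes called higher numbered 6 in CMP, 6 in LMPP, 6 in GATA1+LSK and 5 in GATA1-LSK, and with those of slide 3 alone they numbered 4, 5, 4 and 1. Mcm10, which helps to activate the helicase, ran from 7.66 to 9.44 (median 9.11) on the 6 LT-HSC arrays. It was 9.61, 9.95, 10.17 and 9.74 in GATA1-LSK, 10.42, 10.80, 11.01 and 10.75 in GATA1+LSK, 10.31, 10.15, 10.44 and 10.92 in LMPP and 10.75, 10.90, 10.62 and 10.02 in CMP. The highest LT-HSC array was at 9.44 and the lowest other array at 9.61. The differences of Mcm10 were 1.79 in CMP, 1.96 in GATA1+LSK, 1.67 in LMPP and 1.08 in GATA1-LSK (SE 0.30 each, adjusted p = 1.2e-04, 8.35e-05, 3.66e-04 and 0.0369). The Mcm10 call in GATA1-LSK was lost in 6 of 10 single-array omissions and with median scaling. Cdc7, the kinase that phosphorylates MCM2-7, differed by 1.42 in CMP, 1.65 in GATA1+LSK, 1.31 in LMPP and 0.90 in GATA1-LSK (SE 0.26 each, adjusted p = 2.70e-04, 1.03e-04, 8.52e-04 and 0.041). The Cdc7 call in GATA1-LSK was lost in 5 of 10 single-array omissions. Cdc45, a part of the working helicase, was called in CMP, GATA1+LSK and LMPP, with differences of 1.55, 1.28 and 1.37. It lay at 7.39 and 7.13 on the LT-HSC arrays of slide 2 and at 8.89 to 9.19 on those of slide 3. Within slide 3 the GATA1+LSK array exceeded the LT-HSC mean of Cdc45 by 0.39, and within slide 2 by 2.53. Of the GINS subunits, Gins1 differed by 1.11 to 1.51 and Gins4 by 0.53 to 0.67, all called, and Gins2 by 0.48 to 0.98, not called. The Gins1 call in GATA1-LSK was lost in 7 of 10 single-array omissions and with median scaling. The Gins4 calls in GATA1+LSK and GATA1-LSK were lost in 6 of 10 omissions each, and all 4 Gins4 calls with median scaling.

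Of the 6 measured polymerase and primase genes, Pola2 and Prim2 were called in all 4 comparisons, Pold1 and Pold2 in 3 each, and Pole and Pole2 in none. Against slide 2 LT-HSC arrays alone, the genes called higher numbered 3 in CMP, 3 in LMPP, 3 in GATA1+LSK and 2 in GATA1-LSK, and against slide 3 alone 3, 4, 3 and 3. Pola2, the regulatory subunit of polymerase alpha, ran from 8.39 to 9.38 (median 8.93) on the 6 LT-HSC arrays. It was 10.26, 10.14, 10.02 and 9.54 in GATA1-LSK, 10.80, 10.46, 10.08 and 10.43 in GATA1+LSK, 10.25, 9.89, 9.98 and 10.18 in LMPP and 10.38, 10.28, 10.18 and 10.54 in CMP. The groups did not overlap LT-HSC, and the differences were 1.43 in CMP, 1.53 in GATA1+LSK, 1.16 in LMPP and 1.07 in GATA1-LSK (SE 0.20 each, adjusted p = 1.04e-05, 1.01e-05, 1.84e-04 and 0.0018). Prim2, the regulatory primase subunit, ran from 5.16 to 7.82 (median 7.23) on the 6 LT-HSC arrays and was detected on 5 of them; the lowest of the other 16 arrays was at 7.92. Its differences were 1.87 in CMP, 1.63 in GATA1+LSK, 1.92 in LMPP and 1.33 in GATA1-LSK (SE 0.33 each, adjusted p = 2.27e-04, 0.00178, 2.44e-04 and 0.0195). Pold1, the catalytic subunit of polymerase delta, was called in 3 comparisons, by 0.76 in CMP, 0.99 in GATA1+LSK and 0.94 in LMPP. Pold2, its accessory subunit, was called by 1.19 in CMP, 1.28 in LMPP and 1.25 in GATA1-LSK. All 3 Pold2 calls were lost with the LT-HSC arrays of slide 2 alone. With slide as a fixed term those in LMPP and GATA1-LSK were lost (limma adjusted p = 0.0505 and 0.105). The Pold1 calls in CMP and LMPP were lost under that term as well (adjusted p = 0.128 and 0.246). Pole, the catalytic subunit of polymerase epsilon, differed by 0.03 to 0.61 with no call. Pole2 was detected on 0 of 6 LT-HSC arrays. Its CMP mean was 1.12-fold above a bound for LT-HSC set from the lowest signal among detected probes. The limma adjusted p of CMP minus LT-HSC was 0.0824. Pole2 passed the detection filter only through CMP, with 4 of its 7 detections there, so this difference is not independent of the filter.

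Of the clamp and its loader, Rfc2 and Rfc5 were called in all 4 comparisons, and Pcna in LMPP and GATA1-LSK. The Pcna call in GATA1-LSK was lost in 6 of 10 single-array omissions, with slide as a fixed term (adjusted p = 0.246) and with median scaling. The genes called higher numbered 3 in CMP, 3 in LMPP, 1 in GATA1+LSK and 3 in GATA1-LSK with slide 2 LT-HSC arrays alone, and 3, 3, 2 and 2 with slide 3 alone. Pcna, the sliding clamp, ran from 4.73 to 5.95 (median 5.28) on the 6 LT-HSC arrays, and 5 of these arrays detected it. It was 6.77, 6.67, 6.68 and 6.25 in GATA1-LSK, 5.80, 5.29, 6.56 and 6.4 in GATA1+LSK, 6.95, 7.17, 6.08 and 7.04 in LMPP and 5.6, 5.72, 6.67 and 7.09 in CMP, with the slide 2 arrays of GATA1+LSK and CMP within the LT-HSC range. The differences of Pcna were 0.90 in CMP, 0.65 in GATA1+LSK, 1.44 in LMPP and 1.22 in GATA1-LSK (SE 0.33 each, adjusted p = 0.0526, 0.259, 0.00331 and 0.0304). Rfc2 differed by 1.08 in CMP, 0.72 in GATA1+LSK, 1.13 in LMPP and 1.15 in GATA1-LSK (SE 0.20 each, adjusted p = 3.87e-04, 0.0231, 3.48e-04 and 0.00126), and Rfc5 by 1.15 in CMP, 1.17 in GATA1+LSK, 0.94 in LMPP and 0.90 in GATA1-LSK (SE 0.22 each, adjusted p = 4.72e-04, 7.16e-04, 0.00417 and 0.0167). The large loader subunit Rfc1 was called in LMPP alone, by 0.53 (SE 0.17, adjusted p = 0.0392), a call that 8 of 10 single-array omissions removed. Rfc4, detected on 4 of 6 LT-HSC arrays, was called in CMP alone, by 1.18 (SE 0.29, adjusted p = 0.0048), and Rfc3 in none. The Rfc4 call was lost with median scaling and with the LT-HSC arrays of slide 2 alone. It missed the threshold with slide as a fixed term (limma adjusted p = 0.0538).

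The 3 RPA subunits, which coat single-stranded DNA together, had unlike counts of calls: Rpa2 was called in all 4 comparisons, Rpa1 in 2 and Rpa3 in none. With the LT-HSC arrays of slide 2 alone the genes called higher numbered 2 in CMP, 1 in LMPP, 2 in GATA1+LSK and 0 in GATA1-LSK, and with those of slide 3 alone they numbered 2, 2, 2 and 2. Rpa2 was detected on 3 of 6 LT-HSC arrays and on all others, and ran from 4.34 to 5.72 (median 4.77) on the 6 LT-HSC arrays. It was 5.76, 5.30, 6.59 and 5.87 in GATA1-LSK, 6.22, 6.74, 6.13 and 5.73 in GATA1+LSK, 6.85, 6.93, 7.49 and 7.07 in LMPP and 6.80, 6.88, 5.87 and 6.67 in CMP. The LMPP arrays lay above all LT-HSC, GATA1-LSK and GATA1+LSK arrays and overlapped those of CMP. The differences from LT-HSC were 1.70 in CMP, 1.35 in GATA1+LSK, 2.23 in LMPP and 1.03 in GATA1-LSK (SE 0.29 each, adjusted p = 1.78e-04, 0.00343, 9.95e-06 and 0.043), and 1 of the 2 other Rpa2 probes had the opposite sign in GATA1-LSK. The Rpa2 call in GATA1-LSK was lost in 7 of 10 single-array omissions. Rpa1, the largest subunit, was called in LMPP by 0.70 (SE 0.18, adjusted p = 0.0101) and in GATA1+LSK by 0.57 (SE 0.18, adjusted p = 0.0492). The Rpa1 call in GATA1+LSK was lost in 8 of 10 single-array omissions, with median scaling and with the authors' values. Rpa3 differed by -0.41 to 0.70 and was called in none.

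Fen1 and Lig1 trim and join Okazaki fragments; Fen1 was called in all 4 comparisons and Lig1 in all but LMPP. Against slide 2 LT-HSC arrays alone, the genes called higher numbered 3 in CMP, 1 in LMPP, 3 in GATA1+LSK and 1 in GATA1-LSK, and against slide 3 alone 2, 1, 2 and 1. Fen1, the flap endonuclease, ran from 9.998 to 10.39 (median 10.18) on the 6 LT-HSC arrays. It was 11.34, 11.14, 11.19 and 11.05 in GATA1-LSK, 11.44, 11.97, 11.03 and 11.17 in GATA1+LSK, 11.56, 11.22, 11.35 and 11.21 in LMPP and 11.68, 11.62, 11.38 and 11.48 in CMP. No progenitor array overlapped LT-HSC, and the CMP arrays lay above those of GATA1-LSK. The Fen1 differences were 1.36 in CMP, 1.22 in GATA1+LSK, 1.15 in LMPP and 1.0 in GATA1-LSK (SE 0.17 each, adjusted p = 3.12e-06, 2.76e-05, 3.93e-05 and 9.51e-04). Lig1, the replicative DNA ligase, ran from 8.61 to 9.21 (median 8.84) on the 6 LT-HSC arrays. It was 9.69, 9.65, 9.57 and 9.44 in GATA1-LSK, 10.88, 10.61, 10.44 and 10.43 in GATA1+LSK, 9.25, 8.78, 8.94 and 9.46 in LMPP and 10.30, 9.84, 9.83 and 10.93 in CMP. The LMPP arrays overlapped the LT-HSC range, the GATA1-LSK arrays lay just above it, and the GATA1+LSK and CMP arrays were highest. The differences of Lig1 from LT-HSC were 1.36 in CMP, 1.73 in GATA1+LSK, 0.25 in LMPP and 0.73 in GATA1-LSK (SE 0.21 each, adjusted p = 3.92e-05, 4.57e-06, 0.467 and 0.0418); the GATA1-LSK call was lost in 8 of 10 single-array omissions. Rnaseh2a, a subunit of the nuclease that removes ribonucleotides, differed by -0.12 to 0.67 with no call.

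Of the 5 measured nucleotide supply genes, 4 were called against LT-HSC in CMP, GATA1+LSK and LMPP, and 2 in GATA1-LSK. The genes called higher numbered 5 in CMP, 5 in LMPP, 4 in GATA1+LSK and 3 in GATA1-LSK with slide 2 LT-HSC arrays alone, and 4, 3, 4 and 2 with slide 3 alone. Tk1, the thymidine kinase of the salvage pathway, ran from 8.92 to 10.34 (median 9.87) on the 6 LT-HSC arrays, with the slide 2 arrays at 9.23 and 8.92 lowest. It was 11.41, 11.15, 11.48 and 11.27 in GATA1-LSK, 12.08, 12.21, 11.78 and 11.78 in GATA1+LSK, 11.65, 12.12, 12.06 and 11.91 in LMPP and 11.52, 12.17, 11.56 and 11.84 in CMP. The lowest progenitor array was at 11.15. The differences of Tk1 were 2.02 in CMP, 2.21 in GATA1+LSK, 2.19 in LMPP and 1.58 in GATA1-LSK (SE 0.24 each, adjusted p = 1.26e-06, 1.11e-06, 6.52e-07 and 2.52e-04), or 4.64-fold in GATA1+LSK and 2.98-fold in GATA1-LSK. Rrm1, the large subunit of ribonucleotide reductase, ran from 9.82 to 10.49 (median 10.10) on the 6 LT-HSC arrays. It was 10.77, 10.49, 10.99 and 11.10 in GATA1-LSK, 12.13, 11.68, 11.55 and 11.73 in GATA1+LSK, 11.41, 11.29, 11.01 and 11.33 in LMPP and 12.29, 11.83, 11.19 and 11.76 in CMP. LT-HSC and GATA1-LSK met at 10.49. The differences of Rrm1 were 1.61 in CMP, 1.62 in GATA1+LSK, 1.11 in LMPP and 0.68 in GATA1-LSK (SE 0.20 each, adjusted p = 3.76e-06, 8.09e-06, 4.68e-04 and 0.0526). Rrm2, the small subunit, whose level is known to follow S phase, ran from 6.21 to 7.39 (median 6.46) on the 6 LT-HSC arrays. It was 8.92, 8.81, 8.08 and 7.18 in GATA1-LSK, 9.11, 8.39, 7.64 and 7.01 in GATA1+LSK, 9.29, 9.31, 8.33 and 8.34 in LMPP and 9.74, 9.87, 8.87 and 9.0 in CMP, with the slide 3 array lowest in GATA1-LSK and the slide 4 array lowest in GATA1+LSK. The differences of Rrm2 were 2.67 in CMP, 1.34 in GATA1+LSK, 2.12 in LMPP and 1.55 in GATA1-LSK (SE 0.40 each, adjusted p = 3.36e-05, 0.0334, 6.34e-04 and 0.0253), or 6.38-fold in CMP. The Rrm2 call in GATA1+LSK was lost in 6 of 10 single-array omissions, and that in GATA1-LSK in 4 of 10 omissions. Both were lost with median scaling. Tyms, thymidylate synthase, ran from 8.22 to 9.85 (median 9.29) on the 6 LT-HSC arrays, lowest on slide 2. It was 9.71, 9.65, 9.75 and 10.52 in GATA1-LSK, 10.68, 10.57, 10.95 and 10.88 in GATA1+LSK, 9.81, 10.28, 10.30 and 10.28 in LMPP and 10.15, 10.22, 9.92 and 10.63 in CMP. GATA1-LSK and LMPP arrays overlapped LT-HSC, and GATA1+LSK and CMP arrays did not. The differences of Tyms were 1.08 in CMP, 1.62 in GATA1+LSK, 1.02 in LMPP and 0.76 in GATA1-LSK (SE 0.28 each, adjusted p = 0.00649, 2.98e-04, 0.0129 and 0.121). Dut, the dUTPase, differed by 0.40 to 0.51 with no call.

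Behind the fork, Chaf1a was called in all 4 comparisons and Chaf1b, its partner in the histone chaperone CAF-1, in none. With the LT-HSC arrays of slide 2 alone the genes called higher numbered 2 in CMP, 2 in LMPP, 2 in GATA1+LSK and 2 in GATA1-LSK, and with those of slide 3 alone they numbered 1, 1, 1 and 1. Chaf1a ran from 8.06 to 9.04 (median 8.54) on the 6 LT-HSC arrays. It was 9.80, 9.37, 9.76 and 10.14 in GATA1-LSK, 10.14, 10.06, 10.77 and 10.50 in GATA1+LSK, 10.18, 10.37, 10.14 and 9.72 in LMPP and 10.22, 10.43, 10.09 and 10.56 in CMP. The lowest progenitor array, a GATA1-LSK array at 9.37, lay above the highest LT-HSC array at 9.04. The differences of Chaf1a were 1.77 in CMP, 1.81 in GATA1+LSK, 1.55 in LMPP and 1.21 in GATA1-LSK (SE 0.20 each, adjusted p = 1.11e-06, 2.32e-06, 1.0e-05 and 9.07e-04). Chaf1b had means of 9.97 in LT-HSC, 9.96 in CMP and 10.42 in GATA1-LSK. Uhrf1, which brings the maintenance DNA methyltransferase to hemimethylated DNA, ran from 9.10 to 10.67 (median 10.09) on the 6 LT-HSC arrays, lowest on slide 2. It was 10.18, 10.35, 10.80 and 10.48 in GATA1-LSK, 10.47, 10.82, 11.02 and 11.06 in GATA1+LSK, 10.33, 10.17, 10.52 and 11.04 in LMPP and 10.54, 10.64, 10.83 and 11.37 in CMP. Every progenitor population overlapped LT-HSC. Its differences were 0.95 in CMP, 0.95 in GATA1+LSK, 0.62 in LMPP and 0.56 in GATA1-LSK (SE 0.27 each, adjusted p = 0.0147, 0.0264, 0.128 and 0.259). The Uhrf1 call in GATA1+LSK was lost in 5 of 10 single-array omissions, and that in CMP without CMP replicate 4.

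Between the 4 progenitor populations, 7 calls were made in 6 comparisons, and they fell on Lig1, Rrm1, Rfc4 and Rpa2. GATA1+LSK exceeded GATA1-LSK for 2 genes, against 1.08% of all genes, and was lower for 0, against 1.66%. These were Lig1, by 1.0 (SE 0.23, adjusted p = 0.0154), and Rrm1, by 0.94 (SE 0.22, adjusted p = 0.0223). For both, all 4 GATA1+LSK arrays lay above all 4 GATA1-LSK arrays, and both calls were lost with slide as a fixed term (adjusted p = 0.151 and 0.218). The Rrm1 call was also lost without GATA1-LSK replicate 1 or 2 or GATA1+LSK replicate 1 or 4. The median difference of the 42 genes was 0.32, against -0.05 for all genes. The erythroblast sum was 37.2 to 52.4 in GATA1+LSK and 37.3 to 40.8 in GATA1-LSK; its part in these differences was not tested.

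GATA1+LSK exceeded LMPP for 1 gene, against 3.71% of all genes, and was lower for 0, against 4.86%. The gene was Lig1, by 1.48 (SE 0.23, adjusted p = 8.66e-05), and its call held under every alternative run except the comparison of 1 array with 1 within slide 4, where it missed the threshold and the difference was 0.97. One of its 2 other probes had the opposite sign. CMP exceeded LMPP for 1 gene, against 2.27%, and was lower for 0, against 3.62%; this again was Lig1, by 1.12 (SE 0.23, adjusted p = 0.00291), with an adjusted p of 0.0775 with slide as a fixed term. With the replicate number as a block, Rfc4 was called as well in CMP minus LMPP (1.0, adjusted p = 0.0312), which made 2 genes.

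CMP exceeded GATA1-LSK for 2 genes, against 2.45% of all genes, and was lower for 0, against 5.23%. They were Rfc4, by 1.5 (SE 0.32, adjusted p = 0.00327), a gene detected on 2 of 4 GATA1-LSK arrays, and Rrm1, by 0.93 (SE 0.22, adjusted p = 0.00982). These populations share no slide, and both calls were lost with slide as a fixed term (adjusted p = 0.0964 and 0.129). Without GATA1-LSK replicate 4 the count was 5, and without GATA1-LSK replicate 2 or CMP replicate 1 it was 1. LMPP exceeded GATA1-LSK for 1 gene, against 1.34%, and was lower for 0, against 2.15%: Rpa2, by 1.2 (SE 0.32, adjusted p = 0.0384), a call lost in 7 of 8 single-array omissions.

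GATA1+LSK and CMP differed for 0 of 42 genes by limma, against 3.49% of all genes higher and 3.01% lower in GATA1+LSK; 2 genes had an unadjusted p under 0.05. The median difference was -0.08, against -0.02 for all genes. The smallest adjusted p was that of Rrm2, with a difference of -1.33 (SE 0.44, adjusted p = 0.0791). Same-numbered arrays of this comparison deviated together (correlation 0.19 to 0.58), but 3 of the 4 pairs also shared a slide. Pairing by number and a shared slide cannot be told apart here. With the replicate number as a block Rrm2 was called (adjusted p = 0.00164), as it was with slide as a fixed term (adjusted p = 0.00987). One of the 2 other Rrm2 probes had the opposite sign.

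Several of the genes varied with slide inside a population. In LT-HSC, 10 of 42 genes differed by over 1 between the 2 arrays of slide 2 and the 4 of slide 3, and 23 were lower on slide 2. Rpa3 was at 8.80 and 8.58 on slide 2 and at 10.80 to 11.23 on slide 3, and Gins2 at 6.44 and 6.55 against 8.52 to 8.86. Mcm3 went the other way, at 7.39 and 6.87 against 4.74 to 6.11. In GATA1+LSK, which also spans both slides (2 arrays and 1), the shift had the same sign as in LT-HSC for 32 of 42 genes, among them Rpa3 (-1.89), Gins2 (-1.17) and Mcm3 (2.63). Cdc45 and Tk1 were lower on slide 2 in LT-HSC, by shifts of -1.72 and -1.01, and not in GATA1+LSK, with 0.42 and 0.36. Across the 42 genes the shifts in LT-HSC and in GATA1+LSK had a Pearson correlation of 0.68. It is given as a description, since genes are not independent and the arrays of a slide share its processing. No counts or correlation over all genes stand beside these, so whether the shifts are particular to the 42 genes cannot be told.

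**Figure D5:**
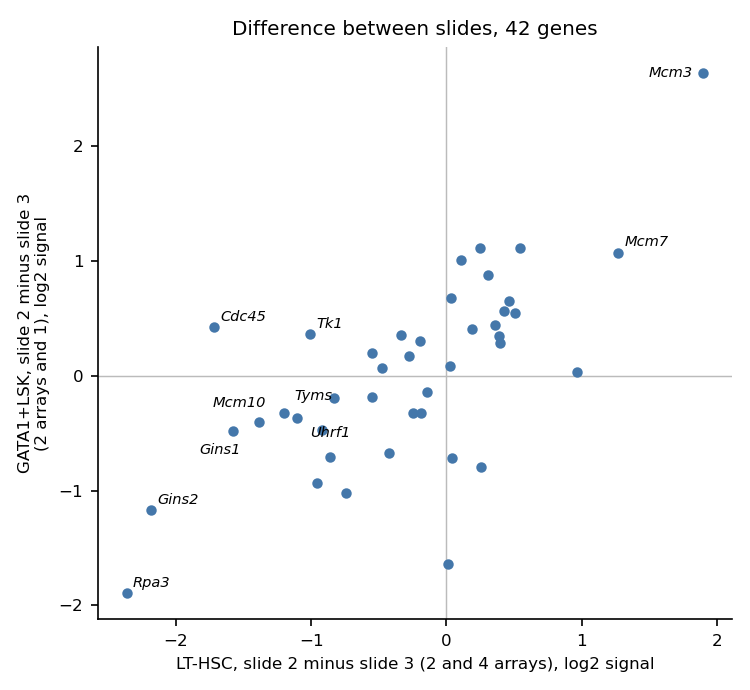
Slide 2 minus slide 3 in log2 signal for each of the 42 genes, in LT-HSC (x axis, means of 2 and 4 arrays) and in GATA1+LSK (y axis, mean of 2 arrays and 1 array), with genes that shifted by over 1 in LT-HSC named. Rpa3, Gins2, Mcm3 and Mcm7 shifted the same way in both populations, and Cdc45 and Tk1 did not.

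Across the arrays most pairs of genes varied in the same direction. Over the 22 arrays the median correlation of a pair of genes was 0.53, and 93.6% of pairs were positive; after the population means were removed the median was 0.07. Tk1 (0.96), Chaf1a (0.95) and Cdt1 (0.93) tracked the mean of the other genes most closely, and Rpa3 (0.20), Orc2 (0.26) and Chaf1b (0.32) least. These are descriptions across arrays that share populations and slides.

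Genes of neighbouring pathways were read from further lists. Of 32 measured other replication factors, 16 were higher than LT-HSC in CMP, 12 in LMPP, 11 in GATA1+LSK and 7 in GATA1-LSK, and 0 were lower in each. Among all genes 10.1% were higher and 11.4% lower in CMP, 8.27% and 7.90% in LMPP, 4.16% and 6.34% in GATA1+LSK, and 2.71% and 2.74% in GATA1-LSK. The same shares, which used all LT-HSC arrays, stand beside the next 3 lists. Against slide 2 LT-HSC arrays alone, the genes called higher numbered 15 in CMP, 11 in LMPP, 12 in GATA1+LSK and 9 in GATA1-LSK, and against slide 3 alone 18, 14, 12 and 4. The smallest F-test p-values there were those of Chtf18, a subunit of an alternative clamp loader (CMP minus LT-HSC 1.96, adjusted p = 1.12e-07), Cdca5 (sororin), which holds sister chromatids together (2.0, adjusted p = 2.06e-06), and Clspn (claspin), a checkpoint adaptor at the fork (1.54, adjusted p = 4.05e-05). Of 33 other nucleotide synthesis genes, 14 were higher and 1 lower in CMP, 10 and 1 in LMPP, 7 and 1 in GATA1+LSK, and 5 and 1 in GATA1-LSK. The higher and lower genes numbered 10 and 3 in CMP, 10 and 3 in LMPP, 8 and 2 in GATA1+LSK and 5 and 2 in GATA1-LSK with slide 2 LT-HSC arrays alone, and 17 and 1, 12 and 1, 5 and 0, 6 and 1 with slide 3 alone. Shmt1, a serine hydroxymethyltransferase of the folate cycle, was above LT-HSC in CMP by 2.02 (adjusted p = 2.42e-05), and Gart, an enzyme of purine synthesis, by 1.35 (adjusted p = 1.22e-04) in CMP. Impdh1, which commits IMP to guanine nucleotides, fell outside that order: GATA1+LSK was at 7.03 ± 0.45 (SD, n = 4), below GATA1-LSK at 8.53 ± 0.53 (n = 4; difference -1.49, adjusted p = 0.00551) and not called against LT-HSC at 7.30 ± 0.27 (n = 6; difference -0.26, adjusted p = 0.664).

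Of 13 measured E2F, RB and S-phase cyclin genes, 5 were higher and 1 lower than LT-HSC in CMP, 3 and 1 in LMPP and in GATA1+LSK, and 2 and 0 in GATA1-LSK. With the LT-HSC arrays of slide 2 alone the higher and lower genes numbered 2 and 0 in CMP, 2 and 2 in LMPP, 2 and 0 in GATA1+LSK and 3 and 1 in GATA1-LSK, and with those of slide 3 alone they numbered 5 and 0, 5 and 1, 3 and 0, 2 and 0. E2f1, an activator of S-phase genes, was above LT-HSC in CMP by 1.73 (adjusted p = 2.23e-06) and by 1.14 (adjusted p = 0.00205) in GATA1-LSK. E2f2 was above it in LMPP by 2.55 (adjusted p = 3.25e-06), and E2f3 by 1.0 (adjusted p = 0.0101) in LMPP. Of 16 measured mitosis genes, 15 were higher than LT-HSC in GATA1+LSK, 14 in LMPP, 13 in CMP and 5 in GATA1-LSK, and 0 were lower. Against slide 2 LT-HSC arrays alone, the genes called higher numbered 13 in CMP, 14 in LMPP, 15 in GATA1+LSK and 10 in GATA1-LSK, and against slide 3 alone 12, 13, 14 and 4. Cdk1, the mitotic kinase, was above LT-HSC in CMP by 2.31 (adjusted p = 1.43e-07), Prc1, a protein of the central spindle, by 1.93 (adjusted p = 1.31e-06) in CMP, and Aurkb, Aurora kinase B, by 3.01 (adjusted p = 2.99e-07) in CMP. Between GATA1+LSK and GATA1-LSK the mitosis list had 7 of 16 genes higher and 0 lower, with a median difference of 1.02. The 42 replication and nucleotide genes had 2 higher and 0 lower, with a median of 0.32. Among all genes 1.08% were higher and 1.66% lower in this comparison. With slide as a fixed term both of the 2 calls were lost, and the mitosis list is not given under that term. The mean of the mitosis genes was 7.51 and 7.56 on the LT-HSC arrays of slide 2 and 8.39 to 8.58 on those of slide 3.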

How the data were processed

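RNA of sorted marrow populations was hybridised to Illumina bead arrays, after Trizol and RNeasy micro extraction and biotin labelling with the Ambion MessageAmp kit, per the labels' protocols. The deposited table holds linear intensities that were not normalised, with values below 0, and a detection p-value for each probe, as deposited by the authors. BeadStudio is named in the labels (version not given). The series matrix holds the authors' normalised intensities.

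Of 45281 probes, 34885 had 1 gene symbol in the platform annotation, 18 several and 10378 none. Background was estimated through the detection p-values and removed, and arrays were then quantile-normalised after an offset of 16 (neqc, limma 3.58.1, R 4.3.3, statmod 1.5.0). The brightest probe with a detection p under 0.05 on at least 4 arrays stood for a gene, which gave 11118 genes. Population means were fitted over all 22 arrays (lmFit and eBayes, 17 residual degrees of freedom), and p-values from limma were adjusted by Benjamini-Hochberg over all genes in each of 10 comparisons. Simulated data had independent normal noise and genes changed in CMP only, and CMP minus LT-HSC was tested. There 50 of 100 genes changed by 1 and 95 of 100 changed by 2 on the log2 scale were recovered, with 6 false calls. The other comparisons were not simulated.

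The members, the other gene lists and the tests were chosen with earlier results of these data known. Values on every array are given for the 10 genes with the smallest F-test p and for named landmark genes, of which Gmnn was not measured. Called genes are named by role, not all of them with difference, SE and adjusted p. Up to 3 genes of each other list are named. Same-numbered arrays deviated together, with every correlation over 0.1, in CMP against GATA1+LSK (0.19 to 0.58), LMPP (0.33 to 0.47) and LT-HSC (0.17 to 0.58), and in LT-HSC against GATA1+LSK (0.24 to 0.64) and LMPP (0.11 to 0.48), but not in the other 5 comparisons. Of the 4 same-numbered pairs, 3 shared a slide in GATA1+LSK against CMP and against LT-HSC, and 2 in CMP against LT-HSC. In CMP against LMPP 1 did, and in LMPP against LT-HSC 0. A shared slide cannot be told apart from pairing by number in such pairs. Precision is limited by the number of arrays. Alternatives were other background, scaling, filter and probe choices, slide or replicate number as a block, and each array left out.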

Additional observations from a re-analysis of the deposited data

Results flagged for a closer look

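In 85 groups of 4 to 6 arrays tested with Dixon's criterion, 2 held an array that stood apart from the rest, where chance alone would mark about 1 in 20. Both concern Tyms, thymidylate synthase. In GATA1-LSK, replicate 4 was at 10.52 with the nearest array at 9.75, and in LMPP, replicate 1 was at 9.81 with the nearest array at 10.28.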

How the results depend on the processing

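Under the alternatives run, none of the 110 calls changed direction. Calls lost numbered 29 with slide as a fixed block, 22 with median scaling, 13 with slide as a random block and 11 with no detection filter. They numbered 6 with the authors' normalised values, 6 with no background correction and 5 with the mean of detected probes. The replicate block lost 4, and a detection p under 0.01 lost 1. Where same-numbered arrays deviated together, the replicate block changed no call beyond those in the text, apart from added ones. Counts of genes called that moved by over 1.5 times were as follows, and the cause was not tested. For GATA1-LSK minus LT-HSC (20 genes) median scaling gave 11 and the fixed slide block 8. For GATA1+LSK minus GATA1-LSK (2) the mean of probes gave 1, the fixed slide block 0 and the random slide block 1. For CMP minus LMPP (1) the mean of probes gave 0, the fixed slide block 0 and the replicate block 2. For GATA1+LSK minus CMP (0) the fixed, random and replicate blocks gave 1 each. For CMP minus GATA1-LSK (2) the random slide block gave 4 and the replicate block 5, and for GATA1+LSK minus LMPP (1) the replicate block gave 2, in comparisons whose arrays share only a number. For LMPP minus GATA1-LSK (1) no background correction, median scaling, the authors' values, no filter and the mean of probes each gave 0. Within single slides, with few arrays, the count was 1 for GATA1+LSK minus CMP on slide 2, and 0 for GATA1+LSK minus GATA1-LSK, GATA1+LSK minus LT-HSC and GATA1-LSK minus LT-HSC on slide 3, for GATA1+LSK minus LMPP and CMP minus LMPP on slide 4, and for LMPP minus GATA1-LSK on slide 1.

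With single arrays left out, the counts ran from 28 to 31 over the 5 populations and for CMP minus LT-HSC, from 24 to 28 for LMPP minus LT-HSC, from 18 to 26 for GATA1+LSK minus LT-HSC and from 8 to 18 for GATA1-LSK minus LT-HSC. They ran from 1 to 5 for CMP minus GATA1-LSK, from 1 to 2 for CMP minus LMPP and for GATA1+LSK minus GATA1-LSK, from 0 to 1 for GATA1+LSK minus CMP and LMPP minus GATA1-LSK, and stayed at 1 for GATA1+LSK minus LMPP. Slide was partly aligned with population, and LMPP and CMP each share no slide with one population. Genes near background, such as Pole2 and Rpa2 in LT-HSC, have less certain levels there.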
